A study of Mus musculus with 45 samples.

Results

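Annexins are cytosolic proteins that bind negatively charged phospholipids when calcium rises, through a repeated core domain that the members share. They are known for linking membranes to each other and to the actin cytoskeleton, for patching damaged plasma membrane, and, outside the cell, for limiting inflammation (Anxa1), serving as a surface platform for plasminogen (Anxa2) and masking phosphatidylserine (Anxa5). Several pair with small S100 proteins, as Anxa2 does with S100a10. The 9 mouse annexin genes followed here, Anxa1 to Anxa8 and Anxa11, were chosen by name from the 23575 genes of the deposited gene table and were looked up by their symbols. All 9 had a row and deposited transcripts that overlap the annotated gene. The other annexin symbols searched (Anxa9, Anxa10, Anxa13 and the antisense gene Anxa11os) gave at most 1 gene that was tested in any comparison, and it was never called.

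The annexins were followed across the conversion of mouse neural progenitor cells (NPC) to induced pluripotent stem cells, in 45 long-read Nanopore libraries. The NPC were derived from the Oct4-GFP embryonic stem cell (ESC) line, labelled O4G, and were stably transfected with a doxycycline-inducible factor set, with genotypes labelled OKMS-Luciferase-AS and OKS-Luciferase-AS. By their usual letters the sets share Oct4, Klf4 and Sox2 and differ by Myc. The wild-type (WT) O4G NPC carried no factor set. Uninduced NPC of all 3 genotypes grew in N2B27-based NPC medium with EGF and FGF-2. Induction took place in serum medium, that is FBS-LIF with 1 µg/mL doxycycline, and WT cells spent 2 days in the same serum medium with doxycycline as a medium control. Induced cells were collected at days 2, 4, 6, 10, 14 and 20 in the direct cDNA libraries (called R9 after the flow cell, 22 libraries, poly(A)-enriched RNA). In the PCR cDNA libraries (R10, 23 libraries, total RNA into reverse transcription by the extract protocol, although the molecule label gives poly(A) RNA for every library) they were collected at days 2, 4, 6, 10 and 18 for OKMS and at days 2, 6 and 18 for OKS. Some cultures stayed in serum medium and others were in 2i-LIF, that is N2B27 medium to which LIF and the inhibitors CHIR-99021 and PD0325901 were added, without serum. These were R9 OKMS at day 14, R9 OKMS and OKS at day 20 (all moved at day 6), and R10 OKMS and OKS at day 18. The ESC lines O4G, R1 and R1-Clone3, all WT, grew in 2i-LIF, with 2 R9 and 7 R10 libraries. Each factor line had 1 library per day and kit, and the labels do not say whether libraries of a group came from separate cultures, so p-values measure the spread between these libraries, which may be technical.

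Before the values, 5 promoters are shown because their genes took part in the changes described below. Anxa1, Anxa2, Anxa5 and Anxa11 moved with the medium or the stem cell state, and Anxa8 differed between the factor lines. Each window runs from 250 bases before to 50 bases after the RefSeq start site on GRCm38.p6, written 5′ to 3′ on the gene's strand. Capitals mark every match on either strand to the letters searched: TGANTCA (the AP-1 site), GGAATG (the TEAD site), TATAAA, the CArG box by name, and GGGCGG (the GC box). The windows lie at chr19:20390622-20390921 on the minus strand (Anxa1), chr9:69453433-69453732 on the plus strand (Anxa2), chr3:36475838-36476137 on the minus strand (Anxa5), chr14:34085729-34086028 on the plus strand (Anxa8) and chr14:25841905-25842204 on the plus strand (Anxa11).
Anxa1 promoter: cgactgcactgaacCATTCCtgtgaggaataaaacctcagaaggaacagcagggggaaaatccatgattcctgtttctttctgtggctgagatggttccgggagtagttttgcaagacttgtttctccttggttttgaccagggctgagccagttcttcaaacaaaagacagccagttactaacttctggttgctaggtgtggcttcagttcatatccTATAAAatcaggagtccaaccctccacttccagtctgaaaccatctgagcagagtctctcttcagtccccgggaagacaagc
Anxa2 promoter: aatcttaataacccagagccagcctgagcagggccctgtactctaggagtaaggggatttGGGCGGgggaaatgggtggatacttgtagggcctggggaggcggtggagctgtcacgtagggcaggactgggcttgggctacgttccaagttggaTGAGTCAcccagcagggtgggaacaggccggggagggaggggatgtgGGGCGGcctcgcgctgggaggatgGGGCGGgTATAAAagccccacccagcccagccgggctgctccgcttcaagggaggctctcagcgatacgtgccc
Anxa5 promoter: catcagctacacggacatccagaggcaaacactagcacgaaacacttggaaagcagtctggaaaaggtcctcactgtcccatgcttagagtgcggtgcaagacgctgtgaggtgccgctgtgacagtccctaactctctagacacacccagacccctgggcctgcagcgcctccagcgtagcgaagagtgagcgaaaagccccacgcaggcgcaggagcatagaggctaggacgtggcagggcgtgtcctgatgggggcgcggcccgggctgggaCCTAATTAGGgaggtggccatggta
Anxa8 promoter: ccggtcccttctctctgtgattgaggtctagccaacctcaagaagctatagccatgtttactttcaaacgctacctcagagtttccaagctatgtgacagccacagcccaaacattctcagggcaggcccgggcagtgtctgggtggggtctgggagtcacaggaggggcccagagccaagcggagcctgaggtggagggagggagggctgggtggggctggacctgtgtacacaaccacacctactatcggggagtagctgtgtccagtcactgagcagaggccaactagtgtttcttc
Anxa11 promoter: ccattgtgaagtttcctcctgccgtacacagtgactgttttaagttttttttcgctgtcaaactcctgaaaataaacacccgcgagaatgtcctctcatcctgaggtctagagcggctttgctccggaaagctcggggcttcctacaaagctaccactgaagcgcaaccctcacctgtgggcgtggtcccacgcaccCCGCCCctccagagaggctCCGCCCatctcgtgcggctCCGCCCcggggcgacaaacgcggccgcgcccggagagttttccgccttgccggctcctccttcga

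The Anxa1 window held 1 GGAATG match, written CATTCC on this strand and beginning at position -236 from the start site, and 1 TATAAA beginning at -32. The Anxa2 window held 1 AP-1 site, TGAGTCA, beginning at -95, 1 TATAAA beginning at -17, and 3 GC boxes. The Anxa5 window held a CArG box that begins 25 bases after the start, and the Anxa11 window held 3 GC boxes, each written CCGCCC. None of these letters occurred in the Anxa8 window. Of 32851 mouse promoter windows of the same length, 7.81% held the AP-1 letters, 14.66% GGAATG, 13.62% TATAAA, 1.63% the CArG box and 35.66% GGGCGG. CpG dinucleotides numbered 3 in the Anxa1 window, 5 for Anxa8, 13 for Anxa2, 16 for Anxa5 and 25 for Anxa11, against a median of 7 over all windows. Anxa4 and Anxa7 have 2 windows each in the same RefSeq table, and Anxa3 and Anxa6 were not matched there. A match is a description of the letters and not evidence of binding.

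Values are given in CPM, the reads of a gene scaled to the same total of gene reads in every library, which are not divided by transcript length, so levels are compared within a gene and not between genes. Depth was 447990 to 1390424 reads per R9 library and 566599 to 4236442 per R10 library, so that 1 read was worth 0.236 to 2.23 CPM. The labels were checked on the factors' own genes: Pou5f1 (Oct4) was at 0 to 3.9 CPM in the 8 NPC libraries, 1.2 to 1.4 in the 3 WT libraries of day 2, and 48.0 to 330.2 in the 11 factor libraries of days 2 to 6. Myc at day 2 was 74.6 to 102.8 CPM with OKMS, 20.1 to 25 with OKS and 5.9 to 14.8 in WT, but it was 75.9 to 210.6 CPM in the 8 NPC libraries, so it separates the lines at day 2 and not from NPC. The NPC marker sum (Nes, Sox2, Pax6, Fabp7, Olig2, Ptn and Ccnd2) was 4981 to 8011 CPM over the 8 NPC libraries, where the ESC marker sum was 10.8 to 30.4. The R10 libraries fell into sets by the share of reads on mitochondrial genes: 0.12% in the R1 ESC library whose label carries no n number, 0.15% to 0.27% in WT NPC, 0.16% to 0.32% in WT cells at day 2, but 1.08% to 1.12% in the factor lines' NPC, 1.51% to 1.64% in the factor lines at day 2 and 1.81% to 2.35% in the 6 numbered ESC libraries. Where a comparison crosses these sets, the set cannot be told apart from the groups. Ranges that do not overlap are a description of single genes below, and the share of all genes with such ranges was not counted.

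The first comparison sets WT cells in serum medium against WT NPC, with no factors in either. The groups differ in medium, in doxycycline and in 2 days of culture, whose parts cannot be told apart. After 2 days in serum medium with doxycycline, Anxa1, Anxa2, Anxa3, Anxa7 and Anxa11 rose and Anxa6 fell in the R10 libraries, while Anxa4 and Anxa5 did not pass the test and Anxa8 had too few reads to be tested. A gene was called when the limma test over all genes on log2(CPM + 1) gave a Benjamini-Hochberg adjusted p under 0.05 and a difference of at least 1. By this rule 6 of the 8 annexins tested were called, 5 higher and 1 lower, against 26.8% of all 14688 genes tested (14.9% higher and 11.9% lower).

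Anxa11, which interacts with the penta-EF-hand protein ALG-2 and tethers RNA granules to lysosomes, stood at 1.6 and 0.6 CPM in WT NPC and at 111.2 and 76.8 CPM after 2 days (replicates 2 and 3, here and below). The difference was 5.53 ± 0.42 on the log2(CPM + 1) scale (SE, n = 2 against 2, limma adjusted p = 0.00172). In R9 it was listed at 0 in all 4 NPC libraries and at 70.7 CPM in the single WT library of day 2, at least 42.0-fold higher than the floor of 3 reads over the 2 WT NPC libraries. Anxa7, the other annexin with a long amino-terminal domain that binds ALG-2, moved from 6.7 and 5.5 to 36.4 and 69.8 CPM (2.87 ± 0.40, limma adjusted p = 0.00698). The 2 groups did not overlap for either gene.

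Anxa3, a regulator of phospholipase A2 activity in vitro, moved from 0 and 1.7 to 67.3 and 208.5 CPM, a difference of 6.18 ± 0.72 (limma adjusted p = 0.00408). Anxa1, the glucocorticoid-induced anti-inflammatory annexin, moved from 1.3 and 0.9 to 25.1 and 54.0 CPM (4.20 ± 0.49, limma adjusted p = 0.00411). Both were close to absent in NPC, with at most 8.4 CPM in any of the 8 NPC libraries, and every day 2 library lay above every NPC library. Anxa2 was present in NPC and moved from 77.8 and 164.1 to 649.4 and 1091.7 CPM (2.89 ± 0.43, limma adjusted p = 0.00846).

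Anxa6, the annexin with a duplicated core that is known for cholesterol and endosome traffic, moved the other way, from 692.0 and 714.5 to 286.6 and 359.7 CPM (a difference of -1.13 ± 0.23, limma adjusted p = 0.0185). This call was lost with edgeR's quasi-likelihood test (adjusted p = 0.0523) and there was no fall in R9, where the NPC held 93.6 and 184.9 CPM and the day 2 library 131.6 CPM. Summed over the deposited transcripts, Anxa6 was 19.8 to 32.5 TPM, the corresponding unit of the transcript table, in WT NPC and 15.7 to 30.2 TPM at day 2, which overlap. Anxa5, the phosphatidylserine binder used to stain dying cells, moved from 48.0 and 150.1 to 197.3 and 523.1 CPM (1.91 ± 0.66, limma adjusted p = 0.0816), and Anxa4, an epithelial annexin, from 8.3 and 2.3 to 15.7 and 11.2 CPM (1.37 ± 0.58, limma adjusted p = 0.134). Neither difference passed the limma test, while DESeq2 called Anxa5. Both were called when the 2 kits were fitted together with the kit as a block (1.59 for Anxa5 and 1.69 for Anxa4), a fit in which the call of Anxa6 was lost (-0.68), as it was with quantile normalization (-0.99).

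These calls rest on all 4 libraries. When any single library was left out, the lone library of its group then being assumed to vary like the other group, no annexin passed (8 were tested in 1 of these fits and 9 in the other 3), and the number of called genes was 0 in 3 of the 4 cases and 1141 in the fourth, without WT day 2 replicate 3. The differences of the called annexins kept their sign in each case, and DESeq2 called 7 of the 8. The astrocyte marker sum (Gfap, Clu, S100b, Aqp4, Aldh1l1 and Aldoc, all 6 in the table) was 1198 to 1444 CPM in these NPC and 8027 to 8334 CPM at day 2. The NPC marker sum was 6347 to 7983 against 3282 to 6323 CPM, with 4 of 7 markers called lower (Olig2, Nes, Ccnd2 and Ptn). The mesenchymal sum of 8 markers was 20.3 to 31.9 against 101 to 243 CPM, with Col1a2 at 0 in all 4 libraries, and the microglia and macrophage sum was at most 0.66 CPM, with Tyrobp at 0. In bulk libraries more cells of a type and more RNA per cell cannot be told apart, and the part of these cell types in the annexin changes was not tested.

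**Figure D1:**
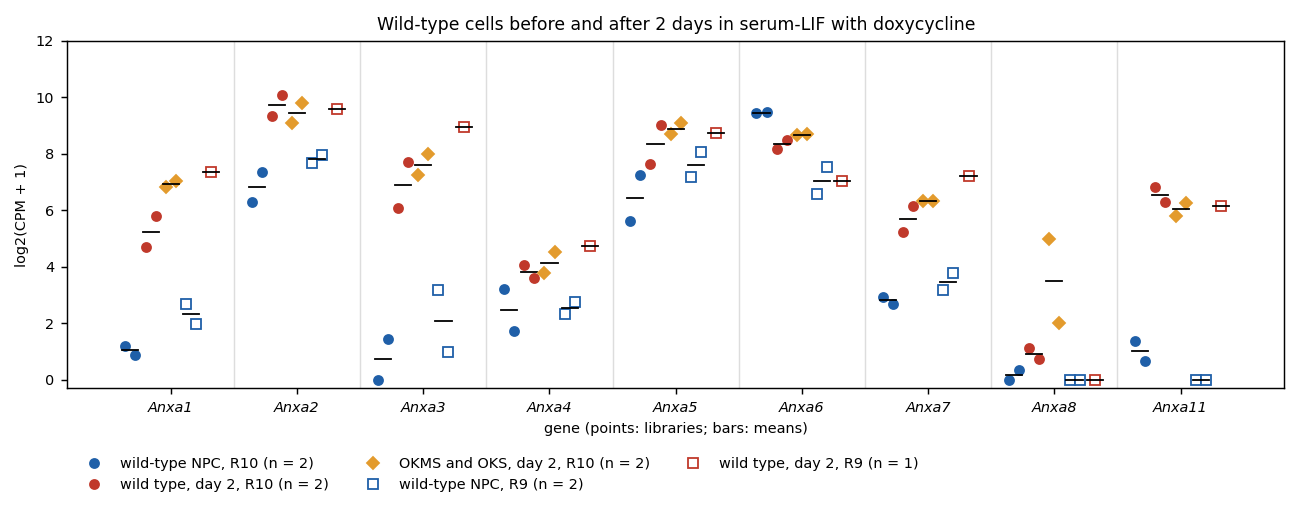
Level of each annexin, as log2(CPM + 1) on the vertical axis, in wild-type NPC and in wild-type cells after 2 days in serum medium with doxycycline, beside the OKMS and OKS lines at day 2. Filled points are R10 libraries, open squares R9 libraries, orange diamonds the factor lines at day 2, and bars are means. Anxa1, Anxa2, Anxa3, Anxa4, Anxa7 and Anxa11 lie lower in every NPC library than in every day 2 library shown. Anxa6 in NPC is far higher in R10 than in R9.

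The partner genes were read from fixed lists. Of the 6 S100 partners tested, 4 rose in WT cells in serum medium and none fell, with a median difference of 2.88 against 0.12 over all genes, where 14.9% of all genes were called higher. In the 3 of 4 cases in which leaving out a library left 0 called genes, the calls of partner genes were lost too. S100a6, a partner of several annexins, rose by 5.56 ± 1.02 (limma adjusted p = 0.0144) from 0.635 and 5.17 CPM in NPC to 57.5 and 382 CPM. S100a11, the partner of Anxa1, rose by 3.82 ± 0.34 (limma adjusted p = 0.00249), S100a1 by 2.63 and S100a10, the partner of Anxa2, by 1.09 ± 0.20 (limma adjusted p = 0.0149). Of 11 membrane repair genes 6 rose and none fell (median 1.37), among them the scaffold Ahnak, which differed by 5.94, the calpain Capn1 by 4.84 and the ferlin Myof by 2.80. The ferlin Dysf was at 0 in both NPC libraries and at 17.6 and 22.7 CPM at day 2. Of 5 plasminogen system genes 2 rose, the activator Plat by 1.85 and the receptor Plgrkt by 1.14. Of 7 ALG-2 and ESCRT genes only Pef1, the partner of ALG-2, was called (higher by 1.30), close to the share over all genes, and none of 8 phosphatidylserine genes was. The cytosolic phospholipase Pla2g4a, the only gene of the Anxa1 receptor and phospholipase list that could be tested, was not called.

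The second comparison holds the medium constant and asks what the factors added by day 2. In R10 the OKMS and OKS lines together were set against WT cells in the same medium, 2 libraries against 2. None of the 9 annexins was called with limma or edgeR, where 0.74% of 15402 genes were called with limma. Anxa1 was 112.2 CPM with OKMS and 131.7 with OKS, both above the WT values of 25.1 and 54.0 (1.70 ± 0.45, limma adjusted p = 0.124). Anxa8 was 30.8 CPM with OKMS and 3.0 with OKS, against 1.2 and 0.7 in WT (2.57 ± 0.89, limma adjusted p = 0.215), and DESeq2 called it higher. The remaining 7 annexins differed by between -0.52 (Anxa11) and 0.72 (Anxa3). The mitochondrial share was 1.51% to 1.64% in the factor libraries and 0.16% to 0.32% in WT, so a factor effect cannot be told apart from that of the library set in R10. In R9 the share was 0.708% and 0.727% with the factors and 0.688% in the single WT library, and no gene was called. There Anxa8 was 2.56 and Anxa1 0.89, while Anxa2 (0.39), Anxa3 (-0.10), Anxa4 (-0.66), Anxa6 (-0.36) and Anxa7 (-0.39) had the opposite sign to R10. The astrocyte sum was 2042 to 5079 CPM with the factors and 8027 to 8334 CPM in WT, and the mesenchymal sum 336 to 552 against 101 to 243 CPM; their part was not tested.

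Before induction no difference between the lines passed the test. Uninduced factor NPC minus WT NPC, with the kit as a block (n = 4 against 4), gave no called annexin among the 7 tested, where 0% of 13647 genes were called with limma. At an unadjusted p under 0.05 there were 1148 genes, and edgeR called 2 and DESeq2 9. The annexin differences ran from -0.25 ± 0.35 for Anxa7 to 0.73 ± 0.33 for Anxa5 (limma adjusted p = 0.593). Anxa8 and Anxa11 had too few reads in NPC to be tested.

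Along the full R9 timeline in serum medium, 8 of the 9 annexins changed from day 0, 7 with their largest difference upward and Anxa6 downward. The day 0 libraries were uninduced NPC in NPC medium without doxycycline. Every difference from day 0 therefore includes the change of medium, which cannot be told apart from induction or time in this fit. The test was limma's moderated F test over the 14 libraries of both lines, with the line as a block, and called 10.7% of 19357 genes (5.5% with the largest difference higher and 5.24% lower). The ALG-2 binding annexins were high from day 2 to day 20. Anxa7 was 4.17 above day 0 at day 2, 4.94 at day 10 and 4.43 at day 20 on the log2(CPM + 1) scale (limma adjusted p = 1.69e-05). Anxa11 was 5.69 at day 2, 6.39 at day 10 and 5.67 at day 20 (limma adjusted p = 1.01e-04).

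The S100-linked and phospholipase-linked annexins were high at day 2 and lower at day 20 than at day 14. That fall was not particular to them. Between the same days Anxa7 went from 4.72 to 4.43 above day 0 and Anxa11 from 6.15 to 5.67. Anxa4 went from 3.26 to 2.08 and Anxa8 from 4.42 to 3.44. Anxa3 was 7.79 above day 0 at day 2 and 5.68 at day 20 (limma adjusted p = 2.54e-05). Anxa1 was 6.00 above at day 2, 6.25 at day 14 and 4.41 at day 20 (limma adjusted p = 3.62e-04). Anxa2 was 2.26 above at day 2, 2.48 at day 14 and 0.40 at day 20 (limma adjusted p = 0.0142). The day 14 maximum came from the OKS line, which held 247.4 CPM of Anxa1 at day 2, 745.3 at day 14 and 114.3 at day 20. The OKMS line was highest at day 2, with 362.8 CPM of Anxa1, then 170.9 at day 14 and 86.2 at day 20. Likewise Anxa2 was 1026, 2330 and 430.4 CPM with OKS and 958.3, 574.0 and 173.6 CPM with OKMS on those days. Among the serum libraries of each line, day 20 was the lowest for both genes.

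Anxa4 was highest late, going from 1.43 above day 0 at day 2 to 3.26 at day 14 and 2.08 at day 20 (limma adjusted p = 0.00286). Its R9 levels were 17.0, 20.9, 32.8, 50.6, 43.3 and 18.5 CPM with OKMS from day 2 to day 20 and 14.7, 21.0, 34.8, 62.5, 79.4 and 34.5 CPM with OKS. Both lines thus peaked at day 10 or day 14. Anxa5 changed in both directions, 1.42 above day 0 at day 4 and -1.40 at day 20 (limma adjusted p = 0.00953), so that its largest difference is upward or downward depending on the scaling. Anxa6 fell by 2.09 by day 20 (limma adjusted p = 0.0228), and Anxa8 differed by up to 4.42 without passing (limma adjusted p = 0.165), its 2 lines being far apart, while edgeR (adjusted p = 9.66e-08) and DESeq2 (adjusted p = 0.0370) called it. Without day 20, Anxa2, Anxa5 and Anxa6 were no longer called and 601 genes were. The R10 libraries of days 0 to 10, with 5 OKMS and 3 OKS libraries, gave 0 called genes with limma. Marker genes of other cells changed along the same days: 3 of 8 mesenchymal markers were called higher (Acta2, Col1a1 and Postn) and 1 lower, 6 of 7 NPC markers lower, 6 of 7 ESC markers higher, 2 of 6 astrocyte markers in each direction, and 1 of 5 epithelial (Epcam) and 1 of 4 neuron markers (Stmn2) higher. The mesenchymal sum was 79.4 to 201 CPM in R9 NPC, 83.7 to 631 CPM with OKMS and 403 to 2486 CPM with OKS, and its part was not tested.

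**Figure D2:**
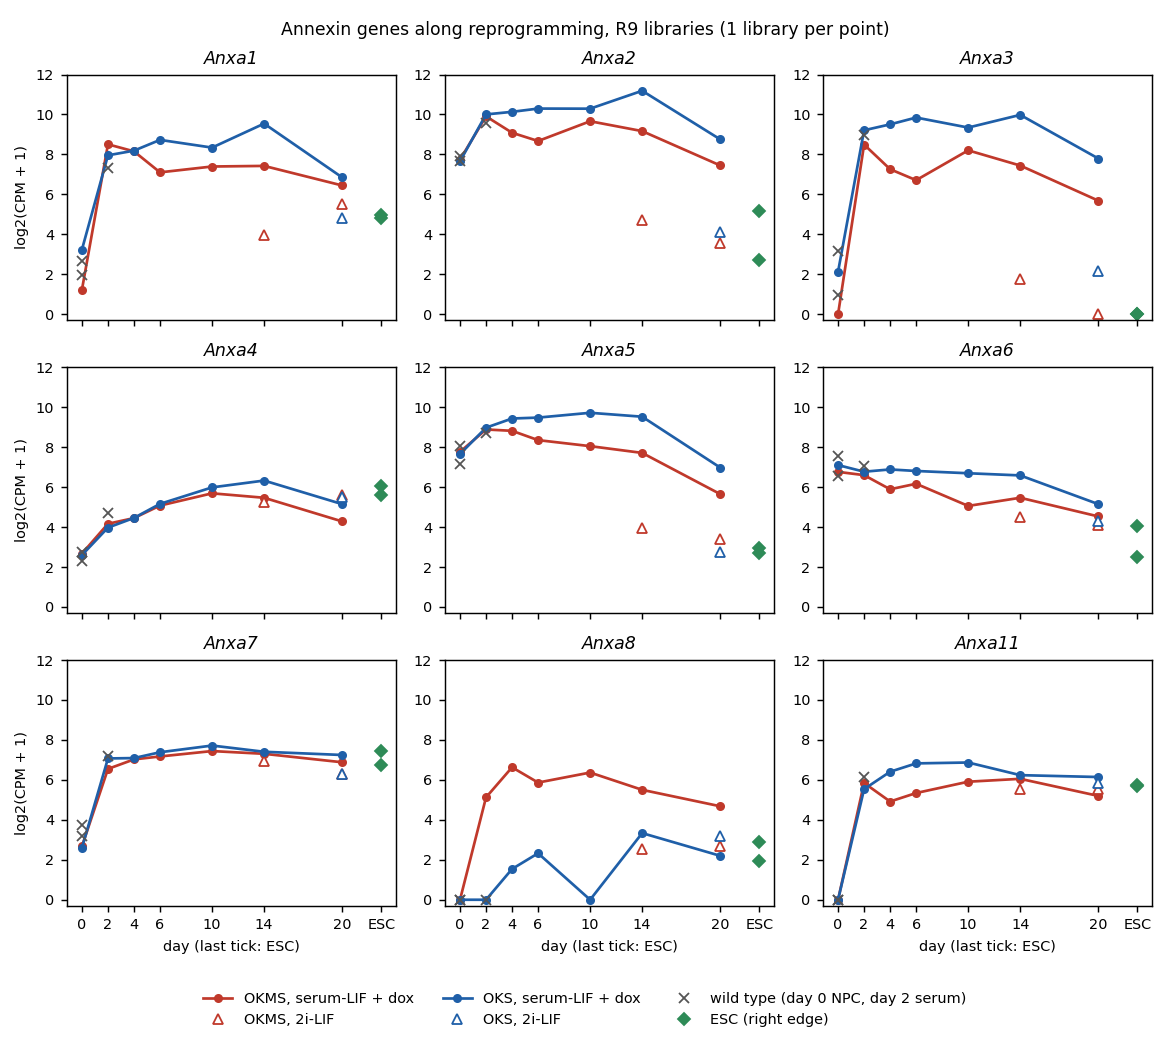
Level of each annexin, as log2(CPM + 1), against the day of induction in the R9 libraries, 1 panel per gene. Red circles and lines are OKMS and blue circles and lines OKS in serum medium, open triangles 2i-LIF, grey crosses WT NPC at day 0 and WT cells at day 2 in serum medium, and green diamonds ESC. The blue line lies above the red one at all 6 days for Anxa2, Anxa3, Anxa5, Anxa6 and Anxa7. The red line lies above the blue one at all 6 days for Anxa8.

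In R9 the 2 factor lines differed more in Anxa8 than in any other annexin, at the early and the late days. Anxa8, which is known from placenta and stratified epithelium, was 33.9, 98.1, 57.3, 81.6, 44.3 and 24.6 CPM with OKMS at days 2, 4, 6, 10, 14 and 20 in R9. With OKS it was 0, 1.9, 4.0, 0, 9.1 and 3.6 CPM on the same days. In R10 it was 30.8, 121.9 and 11.9 CPM with OKMS at days 2, 6 and 18, and 3.0, 4.7 and 2.6 CPM with OKS. OKMS was higher in 9 of 9 pairs of matched day and kit, and the ranges of 11.9 to 121.9 and 0 to 9.1 CPM did not overlap. The pairs are days of the same lines, some of them held by both kits, and not replicates of a factor set. Factor set and line therefore cannot be told apart, here and in the OKMS and OKS comparisons below. Anxa8 was listed at 0 in the 4 R9 NPC libraries, and pooled over days the OKMS serum libraries were at least 54.4-fold above the floor of 3 reads. The uninduced OKMS NPC in R10 held 0.4 CPM and the OKS NPC 0.6 CPM.

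At days 2 to 6 in R9, with day as a block and 3 pairs, 2 of the 9 annexins were called, 1 in each direction. Of all 17284 genes 10.7% were called, 5.77% higher with OKMS and 4.96% lower. Anxa8 was higher with OKMS by 4.59 ± 0.73 (limma adjusted p = 0.00350). Anxa3 was lower with OKMS by 2.03 on the log2(CPM + 1) scale (a difference of -2.03 ± 0.38, limma adjusted p = 0.00694), at 359.4, 152.3 and 103.7 CPM against 591.0, 725.7 and 919.7 CPM. Anxa2, Anxa5 and Anxa6 differed by -0.92, -0.61 and -0.60 without passing the test. Anxa2 held 958.3, 542.5 and 406.7 CPM with OKMS against 1026, 1121 and 1256 CPM with OKS (limma adjusted p = 0.0760). Anxa1, Anxa4, Anxa7 and Anxa11 differed by -0.37, 0.03, -0.27 and -0.89 and were not called. Without day 4 neither call passed, at differences of 4.33 for Anxa8 and -1.93 for Anxa3, and 99 genes were called in all against 1856. Neither passed in a fit with no day term, where 5 genes did, and Anxa3 did not pass without day 6 (-1.48, with 245 genes called). Without day 2, Anxa2 (-1.34) and Anxa11 (-1.49) were called as well. In the R10 libraries of days 2, 6 and 18, the early difference was 3.71 for Anxa8 and -1.73 for Anxa3. Each gene's own spread in that fit came from the pairs of days 2 and 6 alone.

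At days 10 to 20, 5 of the 9 annexins were called, Anxa8 higher and Anxa2, Anxa3, Anxa5 and Anxa6 lower with OKMS, where 4.42% of genes were called (0.978% higher and 3.44% lower). Anxa5 was 264.4, 208.9 and 49.3 CPM with OKMS at days 10, 14 and 20 and 843.3, 736.2 and 125.0 CPM with OKS (-1.60 ± 0.23, limma adjusted p = 0.00487). Anxa3 was 294.0, 173.0 and 50.5 against 649.2, 1009 and 221.3 CPM (-1.93 ± 0.38, limma adjusted p = 0.0199). Anxa2 was 808.8, 574.0 and 173.6 against 1252, 2330 and 430.4 CPM (-1.32 ± 0.32, limma adjusted p = 0.0375). On each of the 3 days the OKMS library was the lower one, while the ranges of the lines overlap, both lines being lowest at day 20. Anxa6 was 32.4, 43.3 and 22.2 against 102.6, 95.1 and 34.5 CPM (-1.12 ± 0.27, limma adjusted p = 0.0379). The Anxa6 call was lost with DESeq2 (adjusted p = 0.0871), with no filter and with quantile normalization. That of Anxa2 was also lost with no filter (-1.32) and with quantile normalization (-1.38). Anxa8 differed by 3.67 ± 0.73 (limma adjusted p = 0.0204).

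Anxa1 was also lower with OKMS on each of those days, at 167.4, 170.9 and 86.2 against 323.5, 745.3 and 114.3 CPM, but did not pass (-1.16 ± 0.38, limma adjusted p = 0.0978). It was called by edgeR (-1.12, adjusted p = 0.00259) and, with limma, without day 20 (-1.53). Anxa4, Anxa7 and Anxa11 differed by -0.68, -0.25 and -0.70 and were not called. The calls of the late days depend on single time points, and those over all genes fell with them. None of the annexins passed without day 14, where Anxa5 was -1.50, Anxa3 -1.63, Anxa2 -0.97 and Anxa8 4.42, and 55 genes were called against 764. Without day 10, Anxa3 (-2.32) and Anxa5 (-1.57) passed, Anxa8 was 2.32, and 104 genes were called. Without day 4, which enters the shared estimate of the spread, Anxa5 alone passed and 202 genes were called, the differences themselves being as with all days. No annexin was called in the R10 libraries, where day 18 is the only late day with both lines and Anxa6 was 69.7 CPM with OKMS and 61.5 with OKS. There Anxa5 differed by -2.10, Anxa8 by 1.85, Anxa1 by -1.19 and Anxa11 by -1.17, while Anxa3 was -0.62 and Anxa2 -0.18. The difference between the late and early effects was not called for any of the 9 annexins, with 0% of genes called, 1406 genes at an unadjusted p under 0.05, and 84 called by edgeR and 5 by DESeq2. Anxa5 came closest, with -0.99 ± 0.33 (limma adjusted p = 0.486), and the other 8 lay between -0.91 (Anxa8) and 0.19 (Anxa11).

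Over all 9 matched pairs of both kits, OKMS was the lower line in 9 of 9 for Anxa2, Anxa3 and Anxa5, in 8 of 9 for Anxa1, Anxa6 and Anxa11, and in 7 of 9 for Anxa4 and Anxa7. Other cells' markers moved with the line. At days 2 to 6 the mesenchymal sum was 310 to 631 CPM with OKMS and 798 to 1402 with OKS, and the astrocyte sum 747 to 2055 against 2953 to 4145. The epithelial sum of 5 markers (Cdh1, Epcam, Krt8, Krt18 and Cldn6) was 12.4 to 382 CPM with OKMS and 1.9 to 5.4 with OKS, the neuron sum 129 to 495 against 10.7 to 56.2 (Stmn2 called higher), and the NPC sum 847 to 3507 against 2129 to 6153 (Ccnd2 and Fabp7 called lower). At days 10 to 20 the ESC marker sum was 4927 to 9472 CPM with OKMS and 87.0 to 8174 with OKS, the mesenchymal sum 83.7 to 494 against 403 to 2486 and the epithelial sum 473 to 1189 against 4.5 to 1240. On those days the NPC sum was 172 to 582 against 405 to 2596 CPM (Ccnd2, Fabp7 and Ptn called lower) and the astrocyte sum 67.7 to 906 against 249 to 2686 CPM (Clu called lower). Col1a2 was at 0 in all 6 libraries of days 2 to 6, and the microglia and macrophage sum was at most 1.3 CPM, with only 2 of its 5 markers in the table. The part of cell composition in the annexin differences was not tested.

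Partner genes were also lower with OKMS where they were called. At days 2 to 6, where 4.96% of all genes were called lower, S100a11 was -1.39 ± 0.25 (limma adjusted p = 0.00628) and S100b, at 0 to 36.2 CPM with OKMS and 12.0 to 100 CPM with OKS, was also called, making 2 of 6 S100 partners. Capns1 and Cavin1 were the 2 of 12 membrane repair genes called, at -1.12 and -1.05. Plat (-1.63) and the inhibitor Serpine2 (-1.07) were called among 6 plasminogen genes, and the flippase Atp11a (-1.36) with its subunit Tmem30a (-1.16) among 8 phosphatidylserine genes. At days 10 to 20, where 3.44% of all genes were called lower, S100a11 was -1.49 ± 0.25 (limma adjusted p = 0.00890), 1 of 6 S100 partners. Cavin1 (-1.33) and Capn2 (-1.08) were 2 of 12 membrane repair genes and Plat (-1.83) was 1 of 6 plasminogen genes, with no partner gene called higher in either period.

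Moving the cells from serum medium to 2i-LIF was followed by lower Anxa1, Anxa2, Anxa3 and Anxa5. Each 2i-LIF library was paired with the serum library of the same line, day and kit, giving 5 pairs, and 4 of 9 annexins were called, all lower, where 12.3% of 14935 genes were called and 6.32% lower. The 2i-LIF medium had no serum, and its protocol lists no doxycycline, so the parts of inhibitors, serum and factor expression cannot be told apart.

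Anxa3 was 173.0, 50.5, 221.3, 127.6 and 197.2 CPM in serum medium and 2.4, 0, 3.5, 0 and 9.4 CPM in 2i-LIF, in the order R9 OKMS day 14, R9 OKMS day 20, R9 OKS day 20, R10 OKMS day 18 and R10 OKS day 18. The difference was -5.65 ± 0.35 (limma adjusted p = 2.58e-08). Anxa2 in the same order was 574.0, 173.6, 430.4, 504.5 and 573.7 CPM against 25.6, 10.7, 16.3, 44.1 and 36.0 CPM (-4.08 ± 0.19, limma adjusted p = 1.28e-09). Every 2i-LIF value of both genes lay below every serum value, in OKMS and in OKS and in both kits. Anxa5 was 208.9, 49.3, 125.0, 41.5 and 181.8 against 14.7, 9.7, 5.8, 8.8 and 28.2 CPM (-2.99 ± 0.30, limma adjusted p = 3.94e-06). Anxa1 was 170.9, 86.2, 114.3, 86.1 and 197.2 against 14.7, 44.1, 26.8, 14.1 and 40.7 CPM (-2.25 ± 0.27, limma adjusted p = 2.85e-05). These also did not overlap. The same 4 genes were called in the 3 R9 pairs and in the 2 R10 pairs taken alone. Both subsets are parts of the pairs that gave the calls, so they are not an independent test. The share of all genes called in each subset is not given here.

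The other 5 annexins were not called and had smaller differences over the 5 pairs. Anxa6 and Anxa7 were lower in 5 of 5 pairs by small amounts, -0.75 ± 0.23 (limma adjusted p = 0.0388, below the size threshold) and -0.51 ± 0.18 (limma adjusted p = 0.0680), with ranges that overlap. Anxa4 and Anxa11 differed by 0.10 ± 0.28 and 0.00 ± 0.25 and were higher in 2 of 5 pairs. Anxa8 was lower in 4 of 5 pairs, at 4.9 against 44.3 CPM in OKMS at day 14 and 5.4 against 24.6 CPM in OKMS at day 20, but 8.1 against 3.6 CPM in OKS at day 20 (-1.24 ± 0.52, limma adjusted p = 0.131). With OKS the serum libraries held only 3.6 CPM of Anxa8 at day 20 in R9 and 2.6 CPM at day 18 in R10, which limits any fall there. Over all 5 pairs edgeR called Anxa8 (-1.46, adjusted p = 0.0206). Without the OKS pair of day 20 its difference of -1.79 was called.

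**Figure D3:**
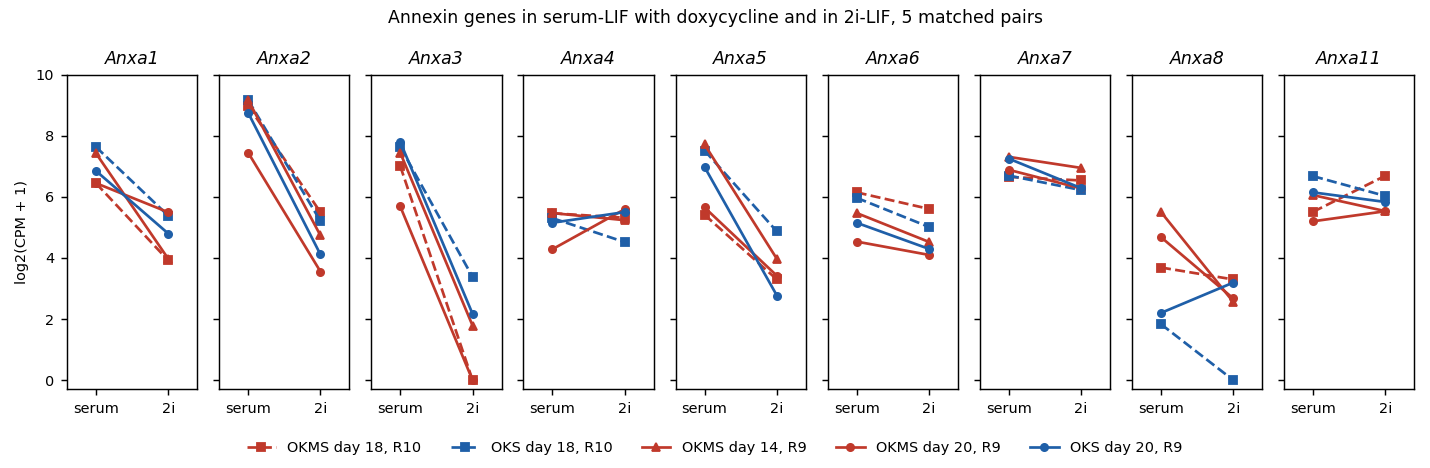
Level of each annexin, as log2(CPM + 1), in the 5 pairs of serum medium and 2i-LIF, with a line joining the libraries of the same factor line, day and kit. Red is OKMS and blue OKS, solid lines with circles or triangles are R9 (triangles day 14, circles day 20) and dashed lines with squares are R10 day 18. All 5 lines run down for Anxa1, Anxa2, Anxa3 and Anxa5 and, by less on average, for Anxa6 and Anxa7, whereas some rise and others fall for Anxa4, Anxa8 and Anxa11.

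Among S100 partners, 4 of 5 tested were lower in 2i-LIF (median -2.50 against -0.03 over all genes), namely S100a4, S100a6 (-4.59 ± 0.25, limma adjusted p = 7.15e-09), S100a10 (-2.50 ± 0.19, limma adjusted p = 1.44e-07) and S100a11 (-1.35). S100a1, named here outside the rule for naming called genes, was higher by 1.11. S100a4 was at 17.2 to 152 CPM in the serum libraries and at 0 to 1.56 CPM in 2i-LIF. Of 12 membrane repair genes 6 were lower and none higher, among them Cavin1 (-2.81) and Ahnak2 (-2.61), while the ferlin Dysf and the caveolin Cav1 were at 0 in all 5 of the 2i-LIF libraries. Of 6 plasminogen genes the urokinase receptor Plaur (-3.30) and Serpine2 (-2.63) were lower. The phosphatidylserine binder Mfge8 was higher by 1.06, the only one of 8 called, close to the 12.3% called over all genes. The mesenchymal marker sum was 78.6 to 443 CPM in serum medium and 17.6 to 28.1 in 2i-LIF (Acta2 and Twist1 called lower). The epithelial sum was 473 to 1240 against 127 to 257 CPM, with 4 of 5 markers called lower. The neuron sum was 608 to 931 against 149 to 281 CPM (Stmn2 called lower), with Rbfox3, Snap25 and Syt1 at 0 in 2i-LIF. The ESC sum was 5702 to 15687 against 9923 to 15822 CPM. Of 7 ESC markers 5 were called higher in 2i-LIF (Nanog, Tfcp2l1, Zfp42, Tdh and Esrrb). The NPC sum was 169 to 1315 against 102 to 189 CPM (Ccnd2 and Pax6 called lower), and the astrocyte sum 67.7 to 483 against 39.6 to 88.2 CPM (Clu and Aldoc called lower). Their part in the annexin differences was not tested.

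In 2i-LIF the reprogrammed cells were then set against ESC in the same medium, 2 R10 libraries of day 18 against 7. None of the 9 annexins was called, where limma called 9.06% of 15880 genes. The number of genes called depended on the tool, with 270 by edgeR and 453 by DESeq2, and neither called an annexin. Anxa2 was 44.1 and 36.0 CPM in the reprogrammed cells and 9.3 to 79.8 CPM in ESC (0.35 ± 0.53), and Anxa3 was 0 and 9.4 against 1.2 to 13.8 CPM (-1.14 ± 0.81, limma adjusted p = 0.379). Anxa8 differed by -1.47 ± 0.73 (limma adjusted p = 0.202) and Anxa4 by -1.02 ± 0.37 (limma adjusted p = 0.0880). The other 5 lay within 0.60 of ESC, at -0.26 for Anxa1, -0.60 for Anxa5, 0.13 for Anxa6, -0.43 for Anxa7 and 0.43 for Anxa11. In R9, with 3 libraries against 2, none was called either, and Anxa3 (1.32), Anxa5 (0.56), Anxa8 (0.38) and Anxa11 (-0.10) had the opposite sign, with Anxa6 at 1.01. With the 6 numbered ESC libraries alone Anxa4 was called (-1.23). Without the OKMS library Anxa8 differed by -3.12. That value rests on the OKS library alone, which held 0 CPM and where 3 reads were worth 4.7 CPM.

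The end points of the conversion, ESC and NPC, differed in the same direction in both kits for 8 annexins. In R10, with 7 ESC and 4 NPC libraries, 9 of 9 were called, the ninth being Anxa3, 6 higher and 3 lower in ESC, where 45.8% of 15415 genes were called (22.4% higher and 23.5% lower). Higher in ESC were the ALG-2 binders Anxa11 and Anxa7, the epithelial annexins Anxa4 and Anxa8, and Anxa1 and Anxa3. Lower were Anxa2, Anxa5 and Anxa6. The astrocyte sum was 1198 to 1570 CPM in these NPC and 42.7 to 64.6 CPM in ESC. Of 5 tested astrocyte markers, 3 were called lower and 1 higher. The mesenchymal sum was 20.3 to 113 against 5.9 to 18.4 CPM, with 3 of 5 tested markers called lower and 2 higher. The epithelial sum was 0 to 7.6 CPM in NPC and 117 to 312 CPM in ESC, with 5 of 5 markers called higher. The neuron sum was 3.4 to 9.2 against 182 to 434 CPM. Of its 2 tested markers, Stmn2 and Rbfox3, 1 was called higher and 1 lower. Their part was not tested. The NPC hold libraries of both mitochondrial sets.

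Anxa11 ran from 0.57 to 1.75 CPM in NPC (median 1.23) and from 51.8 to 67.9 CPM in ESC (median 60.4), a difference of 4.83 ± 0.18 (limma adjusted p = 5.07e-12). Anxa7 ran from 5.5 to 9.9 CPM in NPC and from 60.1 to 137.5 CPM in ESC (3.83 ± 0.22, limma adjusted p = 4.41e-10). Anxa4 ran from 2.3 to 8.3 and from 25 to 87.7 CPM (3.43 ± 0.31, limma adjusted p = 1.14e-07). None of these ranges overlapped. Anxa1 ran from 0.86 to 4.4 and from 14.6 to 44.6 CPM (3.19 ± 0.34, limma adjusted p = 6.82e-07). Anxa8 rested on 3 reads in the 4 NPC libraries and 191 in ESC, a ratio of 30.7 with a 95% exact counting interval of 10.3 to 150.0, which covers counting error only.

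Anxa6 was 692.0 to 762.3 CPM in NPC (median 706.9) and 26.2 to 96.7 CPM in ESC (median 32.2), a difference of -4.31 ± 0.27 (limma adjusted p = 1.69e-09). On its transcripts it was 19.8 to 32.5 TPM in NPC and 5.4 to 9.4 TPM in ESC, which do not overlap either. Anxa5 was 48.0 to 235.4 CPM in NPC and 7.5 to 58.9 in ESC (-2.43 ± 0.50, limma adjusted p = 4.90e-04), an overlap that comes from 1 NPC library, WT replicate 2 at 48.0 CPM. Anxa2 was 77.8 to 164.1 CPM in NPC and 9.3 to 79.8 in ESC (-1.87 ± 0.40, limma adjusted p = 7.14e-04), with the highest ESC value, O4G n2, just above the lowest NPC value.

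Anxa3 did not keep its direction between the kits. In R10 it was 0 to 7.0 CPM in NPC and 1.2 to 13.8 CPM in ESC (1.30 ± 0.55, limma adjusted p = 0.0475), and the ranges overlap. In R9 it was listed at 0 in both ESC libraries and at 0 to 8.0 CPM in NPC, a difference of -1.57 that did not pass (limma adjusted p = 0.183). Its R10 call was lost when any of 7 libraries was left out in turn, with no filter, at pseudocount 0.25 and with quantile normalization. The other 8 annexins had the same sign in R9 as in R10. The difference between the kits in ESC minus NPC was not called for any of the 9 annexins, where 3.63% of 18341 genes were called. It was 2.87 ± 1.00 for Anxa3 (limma adjusted p = 0.103) and 2.41 ± 0.75 for Anxa5 (limma adjusted p = 0.0678). This test of the kits was added after the values had been seen.

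**Figure D4:**
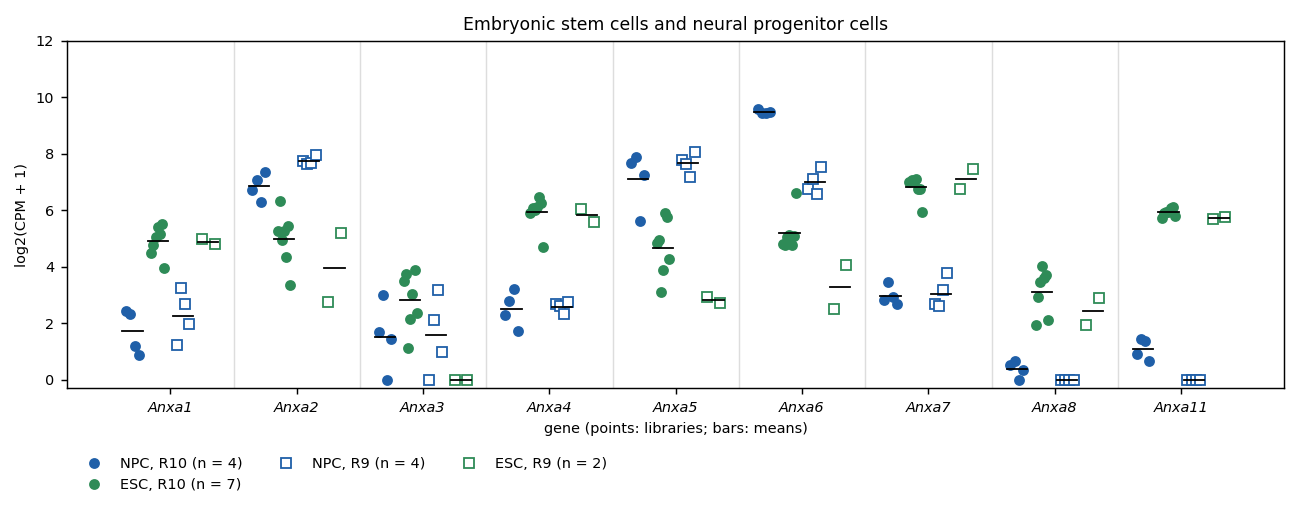
Level of each annexin, as log2(CPM + 1), in the NPC and ESC libraries, with filled circles for R10 (4 NPC in blue, 7 ESC in green), open squares for R9 (4 NPC, 2 ESC) and bars for means. Anxa11, Anxa7 and Anxa4 are high in ESC and Anxa6 is high in NPC in both kits, whereas Anxa3 is higher in ESC in R10 and at 0 in ESC in R9.

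Set in order, Anxa1, Anxa2, Anxa3 and Anxa5 did not run straight from NPC to ESC in R9. Anxa2 was 200.7 to 244.9 CPM in NPC, 406.7 to 1256 CPM with either factor set at days 2 to 6, and 5.7 and 35.4 CPM in ESC. Anxa3 was 0 to 8.0 CPM in NPC, 103.7 to 919.7 CPM at days 2 to 6 and 0 in both ESC. Anxa1 was 1.3 to 8.4, then 136.5 to 423.0, then 27.0 and 30.3 CPM. Anxa5 was 143.1 to 263.3, then 326.1 to 713.6, then 5.6 and 6.6 CPM. Each of these 4 was thus higher at days 2 to 6 than in NPC and in ESC, with no overlap. The share of all genes with such an order was not counted, so this describes single genes. The R9 WT library of day 2, with no factors, held 161.3 CPM of Anxa1, 758.3 of Anxa2, 495.2 of Anxa3 and 424.4 of Anxa5. The stages also differ in medium, so stage and medium cannot be told apart here. Anxa8 was at 0 in NPC and at 2.8 and 6.5 CPM in ESC. At days 2 to 6 it was 33.9 to 98.1 CPM with OKMS and 0 to 4.0 CPM with OKS. Anxa4 lay between, at 4.0 to 5.8 CPM in NPC, 14.7 to 34.8 CPM at days 2 to 6 and 47.5 and 65.3 CPM in ESC. Anxa6 was 93.6 to 184.9, then 58.4 to 117.3, then 4.7 and 15.8 CPM, the first 2 ranges overlapping. Anxa11 differed less, at 29.2 to 112.5 CPM at days 2 to 6 and 51.1 and 53.1 CPM in ESC, which overlap, while NPC were at 0. Anxa7 was 92.7 to 166.0 CPM at days 2 to 6 against 107.9 and 173.1 CPM in ESC, which overlap as well, and 5.1 to 12.6 CPM in NPC.

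Between the R10 ESC lines no annexin was called, where 0.0265% of 15081 genes were called, 4 in all, by limma's F test over O4G (2 libraries), R1 (3) and R1-Clone3 (2). At an unadjusted p under 0.05 there were 1933 genes, edgeR called 0 and DESeq2 161. DESeq2 also called Anxa5, which was 28.0 and 29.6 CPM in O4G, 58.9, 53.5 and 18.3 in R1 and 7.5 and 13.9 in R1-Clone3. The lowest R1 value is that of the library with no n number. For the other 8, the largest difference between 2 lines was 0.19 for Anxa11, 0.26 for Anxa4, 0.58 for Anxa7, 0.60 for Anxa1, 0.69 for Anxa6, 1.32 for Anxa8, -1.42 for Anxa2 and -1.99 for Anxa3 (limma adjusted p of 0.248 to 0.921 over the 9). Without that library, Anxa3, Anxa5 and Anxa8 were called, with largest differences between 2 lines of -1.99, -2.34 and 1.32, and so were 557 genes in all. The n numbers of the 6 numbered libraries were correlated in each of 3 pairs of lines, and with the number as a replicate block these same 3 annexins were called among 874 genes (limma adjusted p = 1.36e-05 for Anxa3, 1.33e-09 for Anxa5 and 0.00118 for Anxa8).

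Among partner genes in ESC against NPC, to be read against the 45.8% of all genes called, 2 of 5 S100 partners were higher (S100a1 by 3.01 and S100a6 by 2.43), and S100b was at 0 in all 7 ESC libraries against 31.1 to 174 CPM in NPC. S100a10, named here as the partner of Anxa2 and outside the rule for naming called genes, was not called, at 66.1 to 169 CPM in ESC and 119 to 195 CPM in NPC. Of 10 membrane repair genes 4 were higher, with Ahnak at 4.81, and 4 lower, with Ehd2 at -4.23, Cavin1 at -3.10 and Capn2 at -2.96. The plasminogen genes Serpine2 (-8.42) and Plat (-5.78) were the 2 of 4 called, close to the share over all genes. Of 8 phosphatidylserine genes the scramblase Plscr1 was higher by 3.61 and Ano6 (-2.76), Tmem30a (-2.48) and Plscr3 (-2.26) were lower. Pla2g4a was -3.41 ± 0.35 (limma adjusted p = 4.09e-07), and Chmp4b, of the ALG-2 and ESCRT list, was -1.0.

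On the timeline, where 5.5% of all genes were called higher and 5.24% lower, 5 of 6 S100 partners rose and 1 fell, with S100a6 up to 10.28 above day 0 (limma adjusted p = 1.69e-05). S100a4 went from 0 to 3.37 CPM in R9 NPC to 24.6 to 175 CPM with OKMS and 17.2 to 371 CPM with OKS, and S100b from 54.8 to 131 CPM to 0 to 36.2 CPM with OKMS and 0.72 to 100 CPM with OKS, which overlaps NPC. Of 12 membrane repair genes 5 rose, with Ahnak at 5.56, Ahnak2 at 4.16 and Myof at 3.54 at their largest, and none fell. Cav1 was at 0 to 1.34 CPM in R9 NPC and at 6.16 to 36.2 CPM with OKMS and 9.34 to 29.0 CPM with OKS. The plasminogen genes split, with Plaur (4.02) and Plgrkt (1.24) higher and Serpine2 (-6.72) and Plat (-6.03) lower, and so did those of phosphatidylserine, with Plscr1 (3.36) higher and Tmem30a (-2.21) and Plscr3 (-1.54) lower. These values are each gene's largest difference over 6 days, kept with its sign, and include the change of medium after day 0. The median of the signed values over all genes was 0.63. Higher and lower values offset each other in it, so it is not a typical size.

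Anxa6 was the only annexin called between the kits. This comparison was chosen after its values had been seen: in 8 conditions of the factor lines held once by each kit (days 0, 2, 4, 6 and 10 for OKMS and days 0, 2 and 6 for OKS), 1 of 9 annexins was called, where 12.9% of 14235 genes were called and 8.01% higher in R10. Anxa6 was higher in R10 in 8 of 8 conditions, at 239.3 to 762.3 CPM against 32.4 to 136.6 CPM, a difference of 2.31 ± 0.11 with the condition as a block (limma adjusted p = 6.06e-13), and the ranges did not overlap. The next largest were -0.63 for Anxa1 and 0.53 for Anxa11.

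The deposited transcripts accounted for little of the Anxa6 gene value. Summed TPM was 0.089 of the gene CPM at the median in R9 and 0.044 in R10, whereas the other 8 annexins had medians of 0.492 to 1.09 in libraries with at least 10 CPM. TPM is scaled to the transcripts that were kept, so the ratio need not be 1. On summed TPM, Anxa6 was higher in R10 in 5 of 8 of the same conditions. The only transcript with at least 10% of its TPM retained an intron and had 10 exons and 3094 bases. It held 30.09% of the gene's TPM over the 45 libraries, but 8.92% in R9 and 43.5% in R10, from 0% in the OKMS serum libraries of both kits to 84.7% in R10 ESC. An adjoining gene row that joins Tnip1 and Anxa6, and an antisense row at Anxa6, were kept apart from Anxa6 in the table, and the counting is not stated to use strand. The Anxa6 gene values above should be read with this, and the TPM had the same direction for ESC against NPC and for OKMS against OKS at days 10 to 20 (0 to 3.3 against 4.3 to 7.9 TPM).

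**Figure D5:**
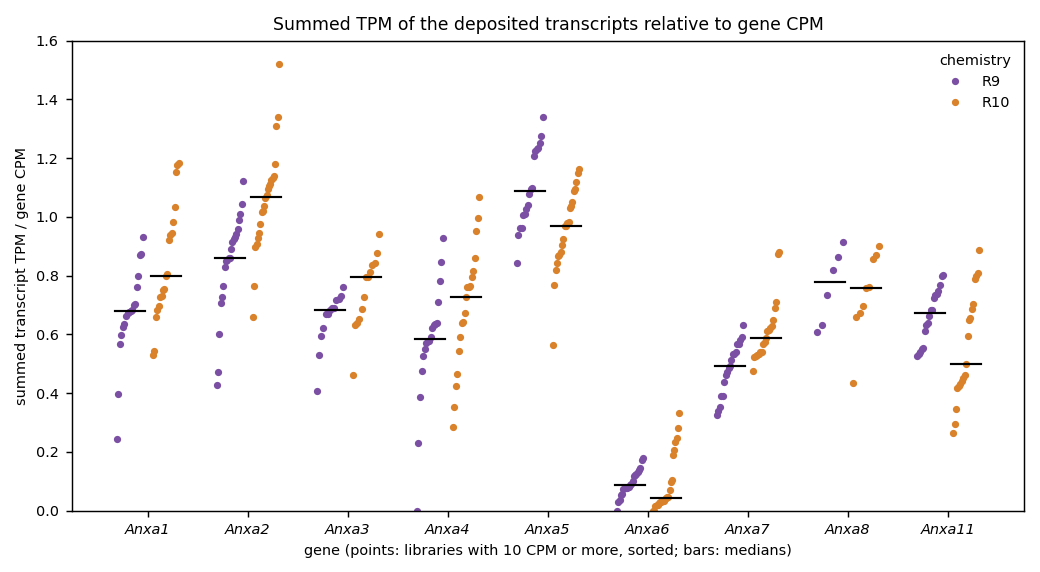
Summed TPM of the deposited transcripts divided by gene CPM, for each annexin in libraries with at least 10 CPM, with points for libraries and bars for medians, by kit. Anxa6 lies at 0.331 or less in every library of either kit, and the medians of the other annexins lie between 0.492 and 1.09.

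Transcript structure set Anxa1 apart. Its leading transcript, with 14 exons and 1576 bases, held 88.81% of the gene's summed TPM over the 45 libraries and was classed as having a splice site not in the catalogue. It begins 63319 bases upstream of the annotated gene start, with a first exon of 154 bases at chr19:20454110-20454263 on the minus strand of mm10, far from the promoter window printed above. The 27 transcripts that begin within 500 bases of the annotated start held 10.52%. The share of the leading transcript was 61.88% to 100% over 16 R9 libraries with at least 10 TPM of Anxa1 and 70.74% to 100% over 18 R10 libraries, so both kits show it. A deposited transcript model does not show how many reads reached that exon.

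In 7 of the other 8 annexins, at least 78.66% of the summed TPM came from transcripts beginning within 500 bases of the annotated start (78.66% for Anxa3 to 99.49% for Anxa2), and in Anxa6 63.47% did. Leading transcripts that match an annotated splice pattern held 86.37% in Anxa8, 81.69% in Anxa2, 76.19% in Anxa11, 68.99% in Anxa5, 55.58% in Anxa7 and 52.38% in Anxa4. In Anxa3 they held 40.11% and 23.74%, and a 7-exon form that begins inside the gene held 19.57%. In Anxa7 a non-coding form of 275 bases held 14.55% in all libraries together, at 22.5% in R10 and 6.7% in R9.

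Over the 45 libraries, with the mean of each kit subtracted, the genes closest in pattern to each annexin were named by Pearson's r among 13756 genes, as a description with no test, since the points share libraries, lines and medium. S100a6 was closest to Anxa1 (r = 0.932), Id2 to Anxa2 (0.946), Acta2 to Anxa3 (0.961) and Fstl1 to Anxa5 (0.975). Pdlim2 and Ccn1 came next for Anxa3, and Gsn and Tm4sf1 for Anxa2. Anxa7 and Anxa11 were each other's closest gene (0.941). Cd9 was closest to Anxa4 (0.905), Tnc to Anxa6 (0.963) and Pmm1 to Anxa8 (0.873), followed for Anxa8 by Lgals7. The pair of Anxa1 and Anxa3 had r = 0.853 and that of Anxa2 and Anxa5 had 0.903. Anxa1 and Anxa6 had -0.066, and Anxa4 and Anxa6 had the lowest value among the annexins, -0.728.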

How the data were processed

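Gene expression was measured by long-read Nanopore sequencing in 45 mouse libraries. The authors deposited a gene table in CPM and a transcript table in TPM. Per the submitters' processing notes the build was mm10 and minimap2 2.24-r1122 was among the tools; other steps are not given in the sources used here. 13 columns of the gene table that match no sample were not used. The CPM values were whole multiples of 1 read (100% within 0.02 reads), so read counts were recovered from the deposited CPM for the count tests.

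The 9 annexins, the partner lists, the marker lists and the tests were chosen with earlier results of these data known. The rule names all 9 annexins in every comparison, by their own value or by the range or count that covers them, with up to 4 called genes per partner list, the largest first (exceptions are named as such), and the 3 genes of most alike pattern. limma 3.58.1 (R 4.3.3) was run on log2(CPM + 1) over all genes with at least 1 CPM in as many libraries as the smaller group. Its trend option was used, and p-values were adjusted over all genes by Benjamini-Hochberg. R9 and R10 were fitted apart or with the kit as a term. In the fits with a day or pair block the labels supply the block: line, day and kit. The ESC libraries numbered n1 and n2 deviated together in all 3 pairs of lines (r = 0.247, 0.155 and 0.227), a check from the data, since the labels tie the numbers to no batch. Alternatives were DESeq2 1.42.0 and edgeR's quasi-likelihood test (4.0.16) on recovered reads, centring on the median, a quantile scaling, a minimum of 5 CPM or none, pseudocount 0.25, the other kit and leaving out each library or day. Depth is limited to the range given above, and libraries with 1 read worth over 2 CPM resolve low genes poorly.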

Additional observations from a re-analysis of the deposited data

Results flagged for a closer look

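In the R10 ESC libraries, the R1 library whose label carries no n number stood apart from the other 6 for a pair of annexins. Its Anxa6 level of 96.7 CPM was the highest of 7, with the next library at 34.1 CPM and the lowest at 26.2 CPM. Its Anxa7 level of 60.1 CPM was the lowest of 7, with the next at 108.0 CPM and the highest at 137.5 CPM. In both cases the gap to the nearest library exceeded Dixon's critical value for 7 samples. 25 groups of values were tested in this way, of which chance alone flags about 1 in 20. The same library had 0.12% of its reads on mitochondrial genes against 1.81% to 2.35% in the other 6, and whether this bears on the annexin values was not tested. With this library left out, ESC and NPC still differed in 9 of 9 annexins.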

How the results depend on the processing

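Of 1691 values of single annexins under the alternatives, 1568 stayed on the same side of the threshold, 89 lost the call, 28 gained one and 6 called values changed sign. Of the 1568, 66 had no call under either setting and the opposite sign. Where an alternative leaves a group with 1 library, that library is assumed to vary like the others. For WT serum medium, 6 annexins were called, against 1 in the R9 libraries, 7 with both kits and 0 to 0 without each library in turn. The replicate block for the WT numbers, which the labels tie to no shared batch (r = 0.535 between the replicates' deviations), called 8 annexins, Anxa4 and Anxa5 among them, and 5605 genes against 3940, and in the ESC lines it called 3 annexins and 874 genes against 4. For the factors at day 2, DESeq2 called 1 annexin, and all genes called numbered 114 with limma, 334 with edgeR, 464 with DESeq2, 399 with median centring, 232 with both kits, 74 with pseudocount 0.25, 29 with quantile normalization and 0 in R9.

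For the timeline, 8 annexins became 0 in the R10 libraries and 5 to 8 without each day, while edgeR and DESeq2 called 9 and edgeR 4568 genes. Anxa5 changed sign with median centring (-1.38), edgeR (-1.39), DESeq2 (-1.32) and between -1.40 and 1.42 without each day (-1.40 without day 4), because its largest difference then lay at day 20. For OKMS against OKS at days 2 to 6, 2 annexins became 0 with no day block and 0 to 4 without each day. At days 10 to 20, 5 became 3 with no filter, 3 with quantile normalization, 0 in R10, 0 with no day block and 0 to 6 without each day, with Anxa6 at 0.18 in R10, and edgeR called 1665 genes against 764. Median centring called 1449 genes higher and 661 lower with OKMS at days 2 to 6, against 998 and 858. For 2i-LIF against serum medium, 4 annexins became 5 with edgeR. For 2i-LIF against ESC, 0 annexins became 1 with the numbered ESC libraries and 0 to 1 without each library, and genes called fell from 1438 to 868 at a minimum of 5 CPM, 453 with DESeq2 and 270 with edgeR.

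For ESC against NPC, 9 annexins became 5 with the ESC library without an n number alone and 8 to 9 without each library, with Anxa3 at -1.57 in R9. For the ESC lines, 0 became 1 with DESeq2, 3 without the library with no n number and 0 to 3 without each library, and DESeq2 called 161 genes. For the difference of the kits in ESC minus NPC, 0 became 1 at pseudocount 0.25 (Anxa11, -2.24), with 666 genes called by limma, 88 by edgeR and 278 by DESeq2. The causes were not tested. DESeq2 gave no adjusted p for 4 values. Depth limits Anxa8 and Anxa11 in NPC and Anxa3 in NPC and ESC, which rest on few reads.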
